A study of Macaca fascicularis with 4 samples.

Results

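Macrophages of the cynomolgus monkey (Macaca fascicularis) embryo were examined at 4 stages. A barcode, the label of 1 captured cell, was taken as a macrophage barcode where at least 4 of 8 genes held 1 or more unique molecular identifiers (UMIs, the counted transcript molecules). The members were thus chosen by UMI counts of these 8 genes, C1QA, C1QB, C1QC, CSF1R, TYROBP, AIF1, CD163 and FCER1G, and those counts support nothing below. The rule took 208 of 27626 barcodes. They numbered 43 of 10639 at embryonic day 24 (E24, Carnegie stage 11), 33 of 5028 at E28 (stage 13), 59 of 6661 at E31 (stage 14) and 73 of 5298 at E37 (stage 18).

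Cells were freed from the tissue with trypsin and EDTA, captured in droplets and sequenced from the 3′ ends of their transcripts. Each stage is 1 library. The E24 library held most of the trunk, after the yolk sac, the amnion, the heart with everything anterior to it and the posterior growth zone had been cut away, and its label names more than 1 embryo. At E28 and E31 the urogenital ridge was taken with mesonephros, coelomic epithelium and part of the nearby mesentery, and at E37 mainly the gonadal ridge with some mesonephros, putative adrenal glands and mesentery. The labels name no treatment and no genetic change. No test between stages exists for this reason, and stage, embryo, dissected tissue and library cannot be told apart. Every interval below is a 95% interval that covers counting error alone.

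Macrophages are resident phagocytes that engulf dying cells, digest them in lysosomes and shape growing tissue. The earliest ones of an embryo arise from yolk sac progenitors and enter the tissues before blood formation starts in the liver, and monocyte-derived cells join them later. Their survival depends on CSF1R, the receptor for the growth factors CSF1 and IL34. In the urogenital ridge they lie among the mesonephric tubules and the vessels of the forming gonad.

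The macrophage share of barcodes was 0.404% at E24 (exact binomial interval 0.293 to 0.544%), 0.656% at E28 (0.452 to 0.921%), 0.886% at E31 (0.675 to 1.14%) and 1.38% at E37 (1.08 to 1.73%). The intervals of neighbouring stages overlapped, while those of E24 and E31 did not. The medians of UMIs per macrophage barcode were 12684, 15665, 12382 and 9027 in stage order, against 9981, 11371, 9749 and 6644 in the other barcodes. With every barcode thinned to 2000 UMIs, which left out none, the shares were 0.348%, 0.537%, 0.781% and 1.26%. The order of the shares was the same with and without thinning, and the tissue taken differed between the stages. Pairs of libraries shared 37 to 111 barcode sequences, none of them a macrophage barcode.

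Most barcodes held few of the 8 genes or nearly all of them, but the cut at 4 genes did not lie where barcodes were fewest, at 5 and 6. Over the 4 libraries 25411 barcodes had none of the 8 genes, 1872 had 1, 101 had 2 and 34 had 3. Inside the rule, 16 had 4, 7 had 5, 7 had 6, 40 had 7 and 138 had all 8, so that 178 of the 208 had 7 or 8. The 34 barcodes just outside it held 970 UMIs per 1000000 (CPM, UMIs summed over barcodes per 1000000 UMIs of the same barcodes) of the 8 genes, and the 16 just inside held 1289 CPM.

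**Figure D1:**
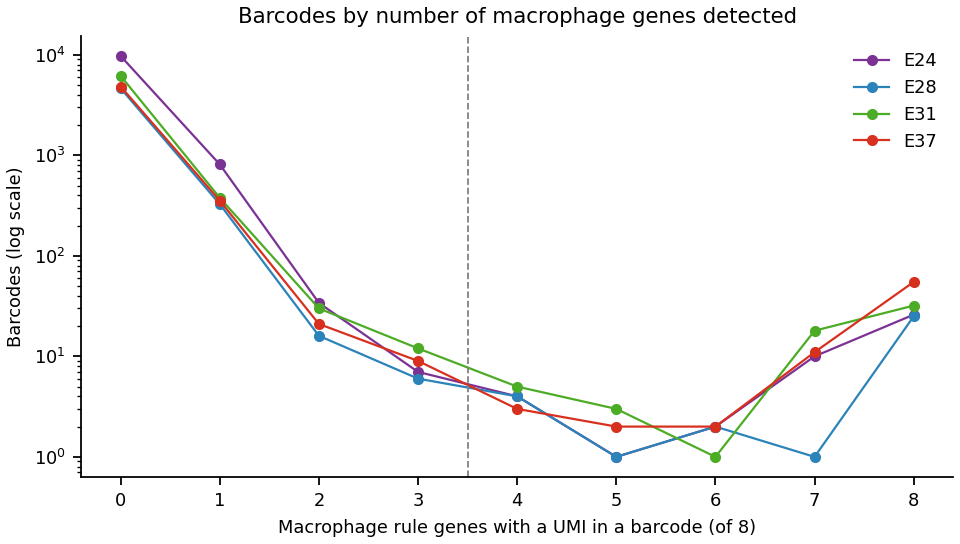
Number of barcodes (vertical axis, log scale) by how many of the 8 macrophage genes held a UMI (horizontal axis), with 1 line per stage; the dashed line marks the rule. In each stage the count drops to between 1 and 3 barcodes at 5 or 6 genes and is higher again at 8 genes, where 26, 25, 32 and 55 barcodes stand at E24, E28, E31 and E37.

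Not all of these barcodes fitted the name. Of the 208, 193 held UMIs of C1QA, C1QB or C1QC, which encode the chains of complement C1q, with a median of 71 UMIs of the 3 genes. The other 15, at 4, 4, 5 and 2 per stage, held none, and all of them had exactly the 4 genes CSF1R, TYROBP, AIF1 and FCER1G. None of the 15 held a UMI of CD163, LYVE1 or MRC1, scavenger and endocytic receptors with 383, 2002 and 1233 UMIs in the 193. They carried 8.11% of the UMIs of all 208. This split was made after the values were seen and is a description.

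Among the 15, 13 formed a set led by CD34 and SPINK2. CD34, a surface sialomucin of blood progenitors and endothelium, held 74 UMIs in these 13, with 2 to 12 in each, against 17 UMIs in 9 of the 193. SPINK2, a serine protease inhibitor known from early blood progenitors, held 161 UMIs, with 5 to 28 in each, against 35 in 25 of the 193. MYB, a transcription factor of blood progenitors, held 19 UMIs against 1, KIT, the stem cell factor receptor, 18 against 5, and MECOM, a regulator of blood stem cells, 24 against 11. Genes chosen after their values were seen were ESAM, an endothelial adhesion molecule, at 48 UMIs against 3, and MMRN1, multimerin, at 50 against 9. CSF1R stood at 102 CPM in the 13 and 568 CPM in the 193, and TYROBP, a signalling adaptor, at 102 and 1213 CPM. Both are rule genes that chose the members, so nothing is read from these 2 levels. SPI1, the transcription factor PU.1, was close in both, at 235 and 272 CPM. MKI67, a nuclear protein of dividing cells, was close as well, at 184 and 179 CPM.

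The remaining 2 of the 15 came from E24. They held 73 UMIs of S100A8 and 123 of S100A9, the subunits of calprotectin, an abundant neutrophil and monocyte protein. The first, with 8034 UMIs, also had 20 UMIs of FCN1, 41 of LYZ and 15 of MPO, and the second, with 3809 UMIs, had 6, 2 and 0. None of the 193 held a UMI of S100A8 or S100A9. The same CD34 and SPINK2 pattern stood just outside the rule: of the 34 barcodes with 3 genes, 29 had no C1Q UMI and 21 of these had both CD34 and SPINK2. In what follows "members" are all 208, and results that move by more than 1.5 times over the 193 alone are given both ways. Sums over marker lists were taken over all 208 only.

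**Figure D2:**
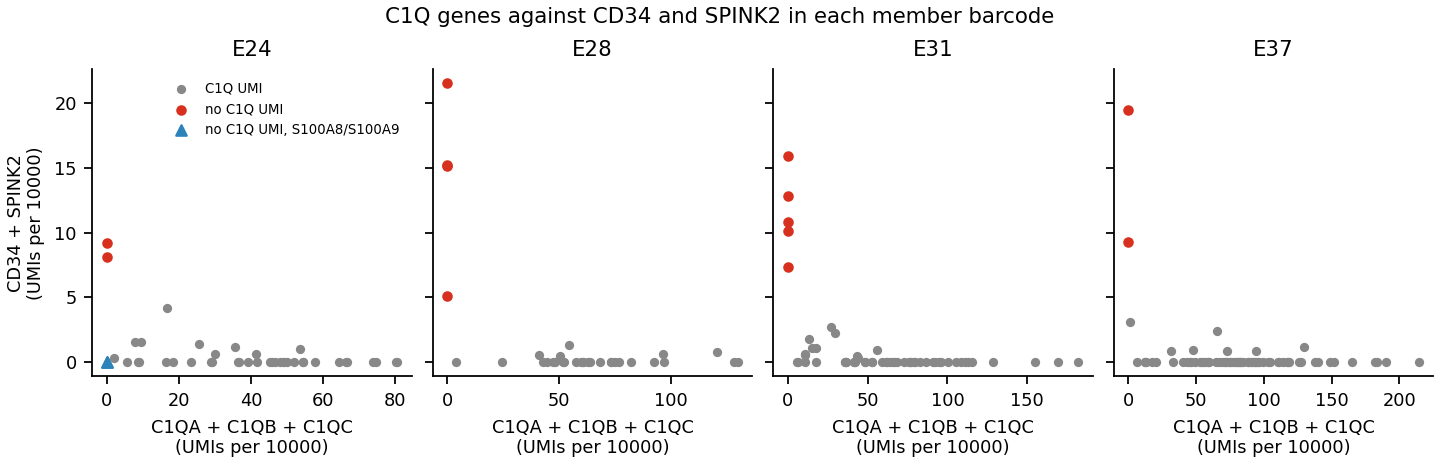
Summed CD34 and SPINK2 (vertical axis) against summed C1QA, C1QB and C1QC (horizontal axis), both in UMIs per 10000, with 1 point per member barcode and 1 panel per stage. Points without a C1Q UMI (red) lie at 0 on the horizontal axis and mostly above the grey points with one; the triangles are the 2 E24 barcodes with S100A8 and S100A9, drawn over each other at 0.

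Macrophage genes outside the rule were checked next. The 11 genes used were CD14, MRC1, SPI1, PTPRC, CTSS, MS4A7, CYBB, ITGAM, CD53, LY86 and GPR34. Each of the 208 members held a UMI of at least 1 of them, as did 30 of the 34 barcodes with 3 rule genes. The 13 members with CD34 and SPINK2 held 0 UMIs of CD14, MRC1, CYBB, MS4A7, ITGAM, LY86 and GPR34, and 0 of FCGR1A. They met this check through SPI1, PTPRC, CD53 and CTSS, with a UMI in 12, 11, 7 and 4 of the 13, so it does not set macrophages apart from them. CD14, the lipopolysaccharide co-receptor, stood at 586, 519, 436 and 471 CPM in the members at E24, E28, E31 and E37, and at 1.13, 0.242, 0.364 and 0.152 CPM in the other barcodes. MRC1, the mannose receptor, stood at 635, 404, 351 and 554 CPM against 1.04, 0.436, 0.658 and 0.935. Both genes were low in the other barcodes of every library. LAPTM5, a lysosomal protein of blood cells, held only 3, 5, 5 and 6 UMIs in the members. Of the markers of lymphocytes, CD3E, CD3D, CD79A, MS4A1, NKG7, GNLY, GZMA and CD7 held 0 UMIs in members of all stages, where 3 UMIs would be 5.08, 5.83, 3.88 and 4.39 CPM. IL7R, a cytokine receptor chain on the same list of mast cell and lymphoid markers, held 2, 4, 10 and 4 UMIs in 2, 3, 6 and 3 members, and was 2-fold or more higher than in the other barcodes at E31 and E37. Of the mast cell markers, CPA3 held 0, 1, 6 and 0 UMIs and HDC 1, 0, 0 and 0. Of the CPA3 UMIs, 6 lay in 5 of the 13 members with CD34 and SPINK2 and 1 in the 193.

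The genes of the rule are given as a description, since they chose the members. C1QA stood at 1053, 1861, 1808 and 2770 CPM in stage order, C1QB at 1261, 2213, 1648 and 2723 CPM, and C1QC at 1171, 1725, 1742 and 2243 CPM. In the other barcodes these 3 genes stayed at or below 0.436 CPM, with a C1QA UMI in 0.0661%, 0.400%, 0.242% and 0.249% of them. CSF1R stood at 327, 478, 432 and 858 CPM. TYROBP stood at 836, 890, 936 and 1777 CPM, and FCER1G, the Fc receptor gamma chain, at 948, 701, 754 and 1399 CPM. AIF1, the actin-binding protein IBA1, stood at 1349, 1245, 1527 and 1708 CPM and was the least exclusive of the 8, with a UMI in 6.01%, 3.96%, 3.64% and 5.61% of the other barcodes. CD163, the haemoglobin scavenger receptor, stood at 113, 167, 98.3 and 225 CPM. All 8 genes were higher at E37 than at E31 and all 8 lay within 2-fold between E28 and E31.

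Setting the members against the other barcodes of their own library also describes the choice, so nothing is read from its counts. Of all genes with at least 20 UMIs over both sums, 14.2%, 11.9%, 12.1% and 12.7% were 2-fold or more higher in members in stage order, and 14.1%, 18.3%, 16.5% and 22.5% were 2-fold or more lower. In all 4 libraries 881 of 14546 genes were higher and 950 lower. The 15 genes outside the rule that stood furthest above the other barcodes in every library were CARD16, GPR34, HPGDS, MPEG1, CCL3, CASP1, LYVE1, RGS1, TIMD4, CX3CR1, CLEC12A, CCR1, MS4A7, CD53 and FOLR2.

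These 15 fall into receptors, effectors and regulators. Among the receptors, GPR34, a receptor for lysophosphatidylserine, stood at 261, 455, 382 and 471 CPM and at 0.098 CPM or less in the other barcodes. LYVE1, a hyaluronan receptor of perivascular macrophages and lymphatic vessels, stood at 885, 882, 488 and 948 CPM, and in the other barcodes at 0.872, 0.194, 0.196 and 0.531 CPM. TIMD4, a receptor for phosphatidylserine on dying cells, stood at 93.1, 150, 131 and 165 CPM, and FOLR2, folate receptor beta, at 134, 142, 188 and 594 CPM. CX3CR1, the fractalkine receptor, stood at 81.3, 159, 180 and 129 CPM, and no UMI of it was found in the 6602 other barcodes of E31. CLEC12A, an inhibitory lectin of myeloid cells, stood at 151, 142, 122 and 200 CPM, and CCR1, a chemokine receptor, at 82.9, 73.8, 66.0 and 80.4 CPM.

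Among the effectors, CCL3, a chemokine, stood at 1957, 2821, 973 and 1949 CPM against 0.357, 1.32, 0.812 and 0.657 CPM in the other barcodes. HPGDS, which makes prostaglandin D2, stood at 359, 319, 329 and 433 CPM. MPEG1, the pore-forming perforin-2, stood at 171, 190, 198 and 250 CPM. CASP1, the inflammasome protease, stood at 205, 198, 149 and 186 CPM, and CARD16, a caspase recruitment domain protein, at 342, 420, 336 and 490 CPM. RGS1, a regulator of G protein signalling, stood at 320, 762, 512 and 1161 CPM, and CD53, a tetraspanin of blood cells, at 168, 280, 243 and 336 CPM. MS4A7, a membrane-spanning protein of macrophages, stood at 94.8, 315, 286 and 714 CPM.

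The comparison of neighbouring stages used UMIs summed over the members of each library. A ratio is printed with its exact conditional binomial interval, and "2-fold" refers to the ratio of these sums. The median log2 ratio over all genes tested was -0.04 for E28 against E24, 0.04 for E31 against E28 and -0.17 for E37 against E31, so that higher values at E37 stand above a median that lies below 0. Named genes had at least 50 UMIs in the higher sum and a log2 ratio at least 1 beyond that of the other barcodes of the same libraries.

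**Figure D3:**
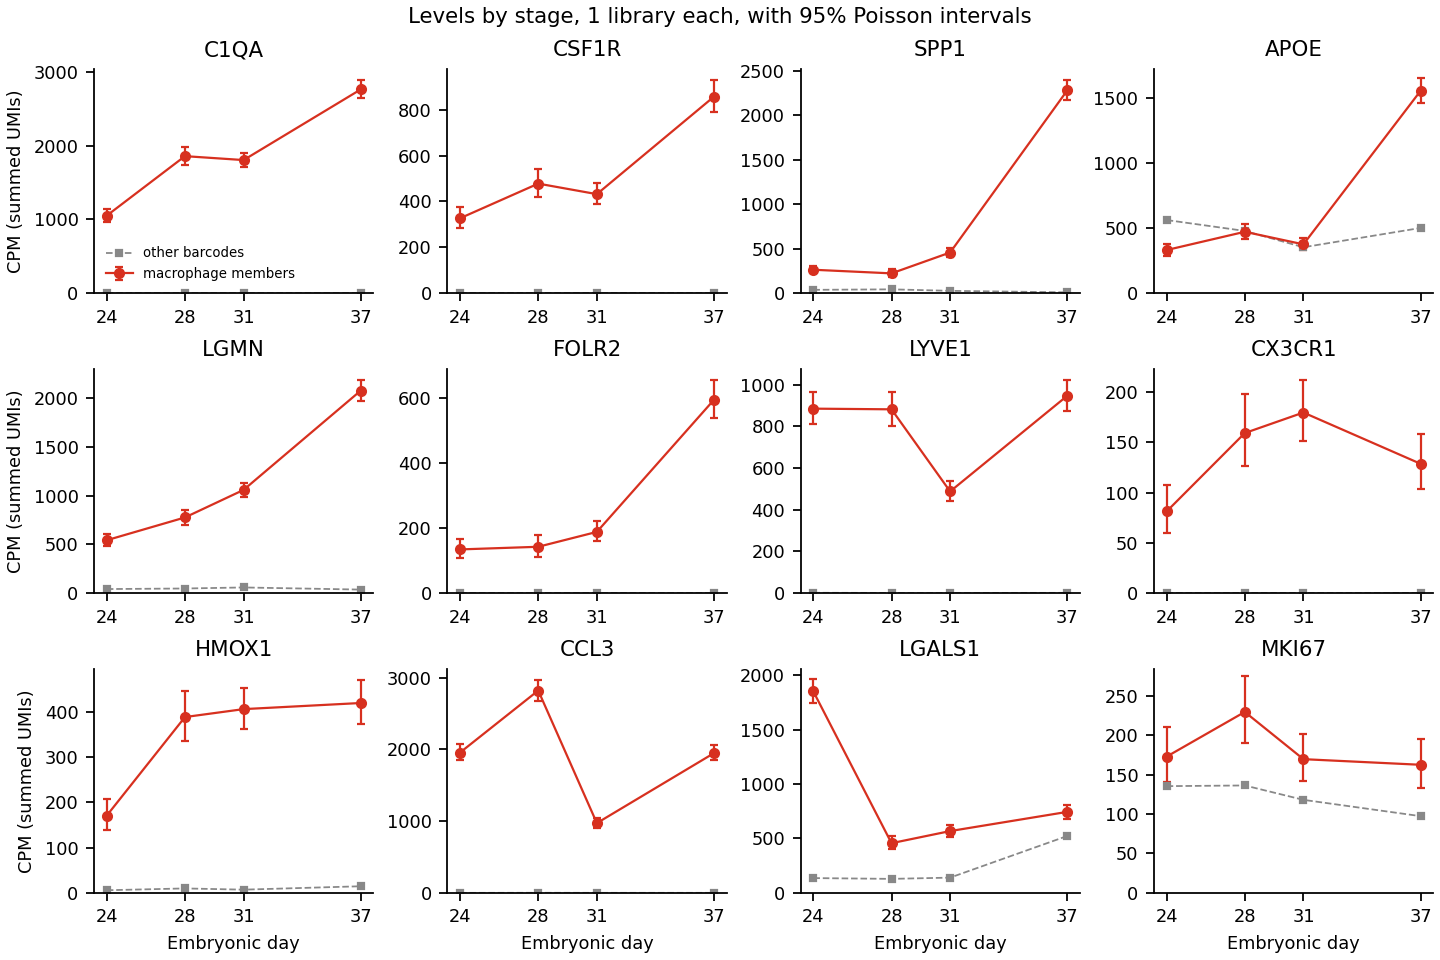
Level of 12 genes in CPM of summed UMIs (vertical axes, linear from 0) by embryonic day (horizontal axes), in members (red circles, bars are Poisson intervals) and in other barcodes (grey squares). SPP1, APOE, LGMN and FOLR2 stand highest at E37, LGALS1 highest at E24 and CCL3 lowest at E31, with 1 library behind each point.

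Between E24 and E28 the members were higher in NR4A1, PLAC8, NR4A2, CD83, SPINK2, TRAPPC1, CTSB and ABCA1. Among the 6114 genes tested, 4.82% were 2-fold or more higher at E28 and 5.82% lower. NR4A1, an orphan nuclear receptor induced by acute signals, stood at 20.3 CPM at E24 and 128 CPM at E28, a ratio of 6.31 (3.38 to 12.8). NR4A2, its relative, stood at 49.1 and 204 CPM, a ratio of 4.16 (2.73 to 6.51). PLAC8, a small cysteine-rich protein of myeloid cells, stood at 27.1 and 134 CPM, a ratio of 4.95 (2.84 to 9.14), and its UMIs lay in 9 of 43 and 17 of 33 members. CD83, a surface protein of activated myeloid cells, stood at 28.8 and 111 CPM, and ABCA1, the cholesterol exporter, at 42.3 and 124 CPM. Of 15 genes that respond to tissue dissociation, 5 were 2-fold or more higher at E28 (FOSB, JUND, EGR3, ATF3 and DUSP1) and 0 lower, with a median log2 ratio of 0.57 in members and 2.31 in the other barcodes. The part of that response in the NR4A1, NR4A2 and CD83 values was not tested.

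Several lysosomal proteases were among the higher genes at E28. CTSB, cathepsin B, stood at 305 CPM at E24 and 674 CPM at E28, a ratio of 2.21 (1.84 to 2.66), with 79.0 CPM in the other barcodes at E28. CTSD, cathepsin D, stood at 27.1 and 105 CPM, and CTSC, cathepsin C, at 141 and 361 CPM. Of the 18 lysosome genes tested, 4 were 2-fold or more higher at E28 (CTSB, CTSD, CTSC and ASAH1) and 0 lower, with a median log2 ratio of 0.51 against 0.20 in the other barcodes. Over all genes tested, 4.82% were higher in this step and 5.82% lower. CD68, a lysosomal membrane protein, stood at 105 and 344 CPM, a ratio of 3.28 (2.44 to 4.45). TRAPPC1, a vesicle tethering subunit, had a ratio of 2.96 (1.86 to 4.85). SPINK2, at a ratio of 3.55 over all members, rested on the C1Q-free barcodes: over the 193 its ratio was 1.25 (0.34 to 4.69).

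Lower at E28 than at E24 were APOA1, S100A9, TTR, S100A8, COL3A1, HAPLN1, LGALS1 and S100A4. LGALS1, galectin-1, stood at 1850 CPM at E24 and 457 CPM at E28, which is 4.05-fold lower, while the other barcodes stood at 136 and 129 CPM. It lay in 40 of 43 members at E24, with a median of 20.3 UMIs per 10000, and in 26 of 33 at E28, with a median of 2.80. S100A4, a calcium-binding protein, stood at 449 and 119 CPM at E24 and E28, and at 72.4 at E31 and 42.4 CPM at E37. In the 193, LGALS1 was 3.62-fold and S100A4 4.28-fold lower at E28. These 2 genes were spread over most E24 members.

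The other 6 lower genes rested on few barcodes. One E24 member held 99.5% of the APOA1 UMIs and 100% of the TTR UMIs, both genes of secreted plasma proteins made by yolk sac endoderm and liver. For COL3A1, a fibrillar collagen, 1 member held 73.1% of the 52 UMIs at E24, and for HAPLN1, a cartilage link protein, 1 member held 83.3% of 54. COL3A1 had no UMI at E28, at least 15.1-fold lower with 3 UMIs set as its floor over the E28 members. S100A8 and S100A9 stood at 124 and 208 CPM at E24 and at 0 and 1.94 CPM at E28, all of it at E24 in the 2 barcodes described above. Without the single barcode that held most UMIs of a gene, APOA1 and TTR were at or near 0 UMIs in both stages. Their log2 ratio of 0.00 was set where a sum of 0 allowed no direction, and it is not a measured equality.

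The monocyte and granulocyte list turned in part on the same barcodes. Of its 9 genes tested, 6 were 2-fold or more lower at E28 (S100A8, S100A9, FCN1, VCAN, MNDA and MPO) and 1 higher (PLAC8), with a median log2 ratio of -1.64 and of 1.28 in the other barcodes. Over the 193 the median of the list was -0.18. In this step 4.82% of all genes tested were 2-fold or more higher in members and 5.82% lower. MNDA, a nuclear protein of myeloid cells, still stood at 148 CPM at E24 and 49.7 CPM at E28 in the 193, a ratio of 0.34 (0.20 to 0.54). MPO, myeloperoxidase, stood there at 86.5 and 15.8 CPM, in 15 of 39 and 4 of 29 barcodes. MPO was found together with the macrophage receptor MRC1 in 13 of 43 E24 members, and in 0 of the other E24 barcodes. FCN1, ficolin-1, was close at both stages in the 193, at 30.6 and 27.1 CPM. CCR2, the monocyte chemokine receptor, held 1, 1, 3 and 7 UMIs in members in stage order, and S100A12, a further monocyte and neutrophil gene, held 0 at each stage.

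At E28 and E31 the same region was taken, from different embryos. Of 6699 genes, 5.21% were 2-fold or more higher at E31 and 3.16% lower. Of 23 macrophage identity genes outside the rule, 0 were 2-fold or more higher and 1 lower, FCGR3A, an Fc receptor, at 52.5 and 19.4 CPM. Of the 20 lysosome genes, 0 passed 2-fold in either direction, and the same held for the 8 resident and perivascular genes and the 9 microglia genes tested. CD74, the invariant chain of antigen presentation, stood at 91.3 CPM at E28 and 303 CPM at E31, a ratio of 3.31 (2.41 to 4.64), and lay in 13 of 33 and 34 of 59 members. The other barcodes stood at 0.581 and 0.238 CPM of CD74. CIITA, which switches on the class II genes, had 1 UMI in all members. Of 18 listed genes of class II presentation, only these 2 were among the gene names, so the others could not be looked at.

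CCL3 stood at 2821 CPM at E28 and 973 CPM at E31, a ratio of 0.345 (0.315 to 0.377), and E31 was the lowest of the 4 stages. MMP9, a matrix protease, was 2.39-fold lower, at 72.4 against 173 CPM, after 327 CPM at E24. LYVE1 stood at 882 CPM at E28 and 488 CPM at E31, a ratio of 0.55 (0.48 to 0.64). HBEGF, an EGF receptor ligand, stood at 44.7 and 14.2 CPM, a ratio of 0.32 (0.14 to 0.68). OGFRL1 and CDC42SE1, the only named genes lower at E31, were 2.11-fold and 2.06-fold lower. In the 15 genes of the response to tissue dissociation, 8 were 2-fold or more lower at E31 (FOSB, JUN, JUND, EGR1, ATF3, IER3, DUSP1 and ZFP36), with a median of -1.02 in members and of -1.07 in the other barcodes. Over all genes tested, 3.16% were 2-fold or more lower in this step. The dissociation response was lower in members and in other barcodes. Its part in the levels of CCL3 and HBEGF was not tested.

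Of the genes chosen for their higher level at E31, SFRP2, ID3, PEG10, DLK1, MDK, TMSB15A and CD24 were each higher in the other barcodes than in members at E31. MDK, the growth factor midkine, stood at 161 CPM in members at E28 and 501 at E31, a ratio of 3.10 (2.44 to 3.98), and at 3001 and 3172 CPM in the other barcodes. DLK1, a Notch-related surface protein of embryonic mesenchyme, stood at 36.9 and 151 CPM in members and at 812 and 831 CPM in the other barcodes. PEG10, an imprinted gene, stood at 19.4 and 115 CPM against 570 and 466 CPM, and at 9.04 and 125 CPM in the 193. Of 7 urogenital epithelial markers tested, 5 were also 2-fold or more higher in E31 members (KRT8, KRT18, LHX1, PAX8 and EMX2) and 1 lower (PODXL, which stood at 18.1 and 18.7 CPM in the 193). Over all genes tested, 5.21% were 2-fold or more higher in this step and 3.16% lower. The summed level of the urogenital markers per member ran from 0 to 18.8 UMIs per 10000 at E28 and from 0 to 27.6 at E31. The highest at E28 lay in a barcode of 23352 UMIs without a C1Q UMI. In 18 of 33 and 37 of 59 members the sum was 0. UPK3B, of the 11 found, had no UMI at either stage. The part of these markers in the 7 genes was not tested.

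Between E31 and E37 the members were higher in LPAR5, SPP1, KLF4, MS4A4A, KLF2, APOE, CD84 and IER3. Of 6993 genes, 4.1% were 2-fold or more higher at E37 and 8.88% lower. SPP1, osteopontin, stood at 262, 222, 457 and 2284 CPM from E24 to E37, a ratio of 5.00 (4.45 to 5.63) for E37 against E31, while it was 3.24-fold lower in the other barcodes. At E31 a single member held 47.0% of its UMIs, and without the top barcode of each stage the levels were 245 and 2033 CPM. APOE, the lipid carrier apolipoprotein E, stood at 330, 470, 374 and 1553 CPM, a ratio of 4.15 (3.64 to 4.75) for E37 against E31. The other barcodes held it too, at 560, 477, 352 and 500 CPM. At E24 members were thus below the other barcodes in APOE, and at E37 above them.

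MS4A4A, a membrane protein of resident macrophages, stood at 20.3, 52.5, 54.3 and 294 CPM and never above 0.126 CPM in the other barcodes. It lay in 58 of 73 members at E37 and 19 of 59 at E31, or in 43.8% and 8.47% after thinning. CD84, a self-binding receptor of blood cells, stood at 10.2, 13.6, 40.1 and 215 CPM, a ratio of 5.36 (3.62 to 8.17) for the last step. LPAR5, a lysophosphatidic acid receptor, lay in 44 of 73 members at E37 and 6 of 59 at E31, at 87.7 and 7.76 CPM. KLF4 and KLF2, related zinc finger transcription factors, held 110 and 85 UMIs at E37 against 17 and 15 at E31. Their ratios were 7.32 and 6.41, against 2.97 and 2.59 in the other barcodes. IER3, an immediate early gene, had a ratio of 7.01 against 1.37.

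**Figure D4:**
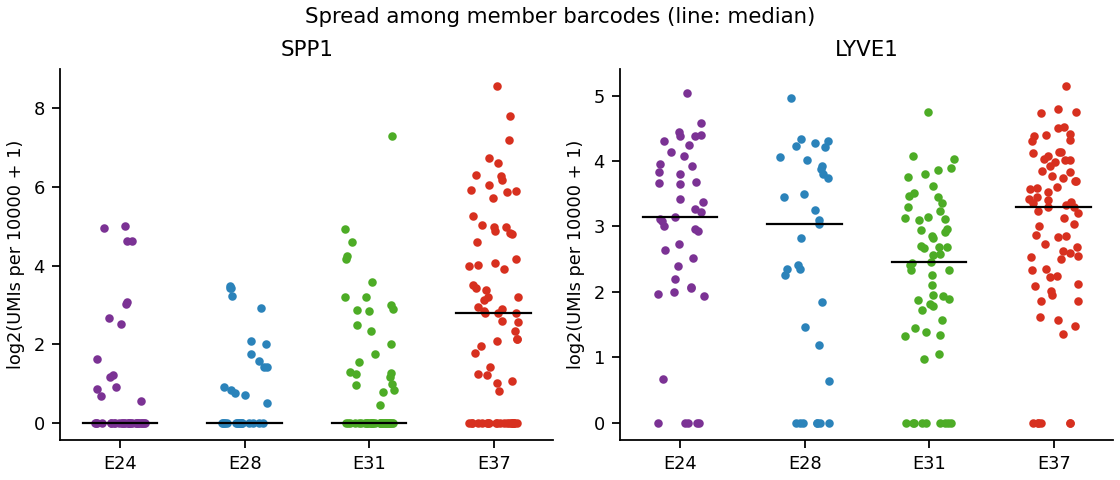
SPP1 and LYVE1 in each member barcode as log2(UMIs per 10000 + 1) (vertical axes) by stage, with the median as a line. SPP1 has a median of 0 at E24, E28 and E31 and of 5.92 UMIs per 10000 at E37, whereas LYVE1 medians lie between 4.49 and 8.86 at all stages.

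SPP1 varied more among the E37 members than LYVE1 did. Of the 73 members, 21 had no SPP1 UMI, 27 had 10 or more, and the highest held 375 UMIs per 10000. LYVE1 lay in 67 of the 73, with a highest value of 34.3 UMIs per 10000. SPP1 and LYVE1 were found together in 51 of 73 members, SPP1 alone in 1 and LYVE1 alone in 16. SPP1 and TREM2, a lipid-sensing receptor, were together in 45 of 73. LYVE1 and TIMD4 were together in 48 of 73 E37 members and in 24 of 43, 21 of 33 and 38 of 59 at the earlier stages. LYVE1 and CX3CR1 were together in 25, 16, 34 and 41 members in stage order, so the genes did not split the members into LYVE1 barcodes and CX3CR1 barcodes. These counts were not thinned, and no order between stages is drawn from them. The other barcodes held LYVE1 with TIMD4 or with CX3CR1 in 0 cases at any stage.

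Genes of resident and perivascular macrophages stood higher at E37. Of the 8 tested, 5 were 2-fold or more higher than at E31 (FOLR2, STAB1, F13A1, VSIG4 and SLC40A1) and 0 lower, with a median log2 ratio of 1.12 against 0.60 in the other barcodes. Of all genes tested in this step, 4.1% were higher and 8.88% lower. FOLR2 had a ratio of 3.17 (2.61 to 3.85), VSIG4, a complement receptor, of 3.16 (2.34 to 4.33), and F13A1, a coagulation transglutaminase, of 3.55 (2.30 to 5.65). STAB1, the scavenger receptor stabilin-1, stood at 195, 299, 220 and 456 CPM in stage order. SLC40A1, the iron exporter ferroportin, stood at 37.2, 107, 164 and 373 CPM. LYVE1 lay just under 2-fold at a ratio of 1.94 (1.71 to 2.21), and TIMD4 had a ratio of 1.26 (0.96 to 1.67).

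Genes known from microglia, the macrophages of the brain, were followed as well. CX3CR1 had its highest level at E31 and a ratio of 0.72 (0.54 to 0.94) at E37. P2RY12, a nucleotide receptor of microglia, stood at 40.6, 97.1, 97.0 and 90.7 CPM in stage order. TREM2 stood at 72.8, 136, 105 and 244 CPM. Of 9 tested, 3 were 2-fold or more higher at E28 than at E24 (P2RY12, P2RY13 and OLFML3) and 2 higher at E37 than at E31 (TREM2 and SLCO2B1), with 0 lower in either step. Over all genes tested, 4.82% and 4.1% were higher in these 2 steps. TMEM119 had 0, 0, 0 and 4 UMIs in members, and SALL1 5, 4, 8 and 0. Both stood at 7.35 CPM or more in the other barcodes of every stage.

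Digestive and lipid genes stood higher at E37 in part. LGMN, the lysosomal protease legumain, stood at 542, 775, 1058 and 2078 CPM, a ratio of 1.43, 1.36 and 1.96 for the 3 steps, and at 34.7 to 56.5 CPM in the other barcodes. It lay in 38 of 43, 29 of 33, 51 of 59 and 70 of 73 members. Of 20 lysosome genes, 2 were 2-fold or more higher at E37 than at E31 (CTSL and NPC2) and 0 lower, with a median of 0.57 against -0.09 in the other barcodes. NPC2, a cholesterol carrier of the lysosome, stood at 479 and 987 CPM. Of 9 lipid handling genes, 3 were 2-fold or more higher (APOE, APOC1 and SPP1) and 0 lower, with a median of 0.70 against 0.06. For both lists the share over all genes tested was 4.1% higher. FABP5, a fatty acid binding protein, was lower, at 1596 CPM at E31 and 1274 CPM at E37.

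Of 11 receptors and bridges of dying cell uptake tested, 2 were 2-fold or more higher at E28 than at E24 (MSR1 and SCARB1), 0 at E31 against E28 and 1 at E37 against E31 (GAS6), with 0 lower in each step. Their median log2 ratios were 0.71, 0.13 and 0.44 in members and 0.14, -0.05 and -0.01 in the other barcodes. Over all genes tested, 4.82%, 5.21% and 4.1% were higher in the 3 steps and 5.82%, 3.16% and 8.88% lower, so nothing is read from these counts. GAS6, the ligand that links dying cells to the receptors AXL and MERTK, stood at 52.5, 91.3, 78.9 and 164 CPM in stage order. AXL stood at 23.7, 40.8, 59.5 and 65.8 CPM, and at no more than 40.2 CPM in the other barcodes. MERTK stood at 35.5, 58.3, 60.8 and 73.1 CPM. CD36, a scavenger receptor, stood at 369, 326, 477 and 659 CPM.

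Iron genes differed at separate steps. HMOX1, the heme-degrading oxygenase, stood at 171 CPM at E24 and at 389, 406 and 420 CPM afterwards, a ratio of 2.27 (1.78 to 2.92) for the first step. Its spread was wide: 1 member held 27.0%, 35.0% and 13.9% of the UMIs at E28, E31 and E37. Without the top barcode of each stage, E24 and E28 stood at 161 and 295 CPM, less than 2-fold apart. The median member held 1.59 UMIs of HMOX1 per 10000 at E24 and 1.01 at E28. HMOX1 lay in 35 of 43 members at E24 and in 23 of 33 at E28. The first step was thus higher in the sum and not in the median member. FTH1, the ferritin heavy chain, stood at 1784, 2079, 1622 and 3400 CPM in members and at 1757, 1515, 1498 and 2051 CPM in the other barcodes. Erythroid markers summed to 120, 159, 120 and 165 CPM in members and to 4792, 8321, 6756 and 17335 CPM in the other barcodes. HBB, ALAS2 and SLC4A1 had no UMI in members of any stage.

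Of 8 complement genes tested, 2 were 2-fold or more higher at E37 than at E31 (C2 and CFD) and 0 lower, with a median log2 ratio of 0.74 against -0.25 in the other barcodes. CFD, complement factor D, stood at 33.9 CPM at E24 (21.6 CPM in the 193) and then at 38.9, 51.7 and 259 CPM, a ratio of 5.00 (3.53 to 7.24) for the last step, against 13.8 and 3.82 CPM in the other barcodes of E31 and E37. C2, a complement protease, stood at 19.4 CPM at E31 and 62.9 CPM at E37. Of 10 chemokine and cytokine genes, 5 were 2-fold or more higher at E37 than at E31 (CCL3, CXCL8, IL1B, IL10 and IL10RA) and 0 lower, with a median of 0.91 against -0.26 in the other barcodes. Over all genes tested, 4.1% were higher in this step. CCL3 stood at 973 and 1949 CPM, with an interval of the ratio from 1.83 to 2.19. IL10RA, a chain of the receptor for the cytokine encoded by IL10, had a ratio of 2.17 (1.45 to 3.30). CXCL8, a neutrophil attractant, had 31 UMIs in 4 members at E37 and 0 UMIs at E31, and IL1B had 13 and 7 UMIs. The dissociation response was higher as well: 7 of 15 genes were 2-fold or more higher at E37 (FOS, FOSB, ATF3, IER3, DUSP1, NFKBIA and ZFP36), with a median of 0.89 in members and 1.81 in the other barcodes. Its part in the chemokine, KLF and IER3 values was not tested.

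Transcription factors of the myeloid lineage included 4 of 15 that were 2-fold or more higher at E37 than at E31 (CEBPA, CEBPD, MAF and KLF4) and 0 lower, beside 4.1% higher over all genes tested. CEBPD stood at 144, 204, 109 and 364 CPM, a ratio of 3.35 (2.61 to 4.34) for the last step. SPI1 stood at 262, 358, 239 and 246 CPM and IRF8, a regulator of macrophage and microglia development, at 88.0, 161, 138 and 148 CPM. The growth signals themselves lay mostly outside the members: CSF1 had 0, 2, 2 and 1 UMIs in members and 6.30, 7.04, 6.48 and 10.2 CPM in the other barcodes, and IL34 had 0 UMIs in members of any stage and at most 0.209 CPM elsewhere.

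**Figure D5:**
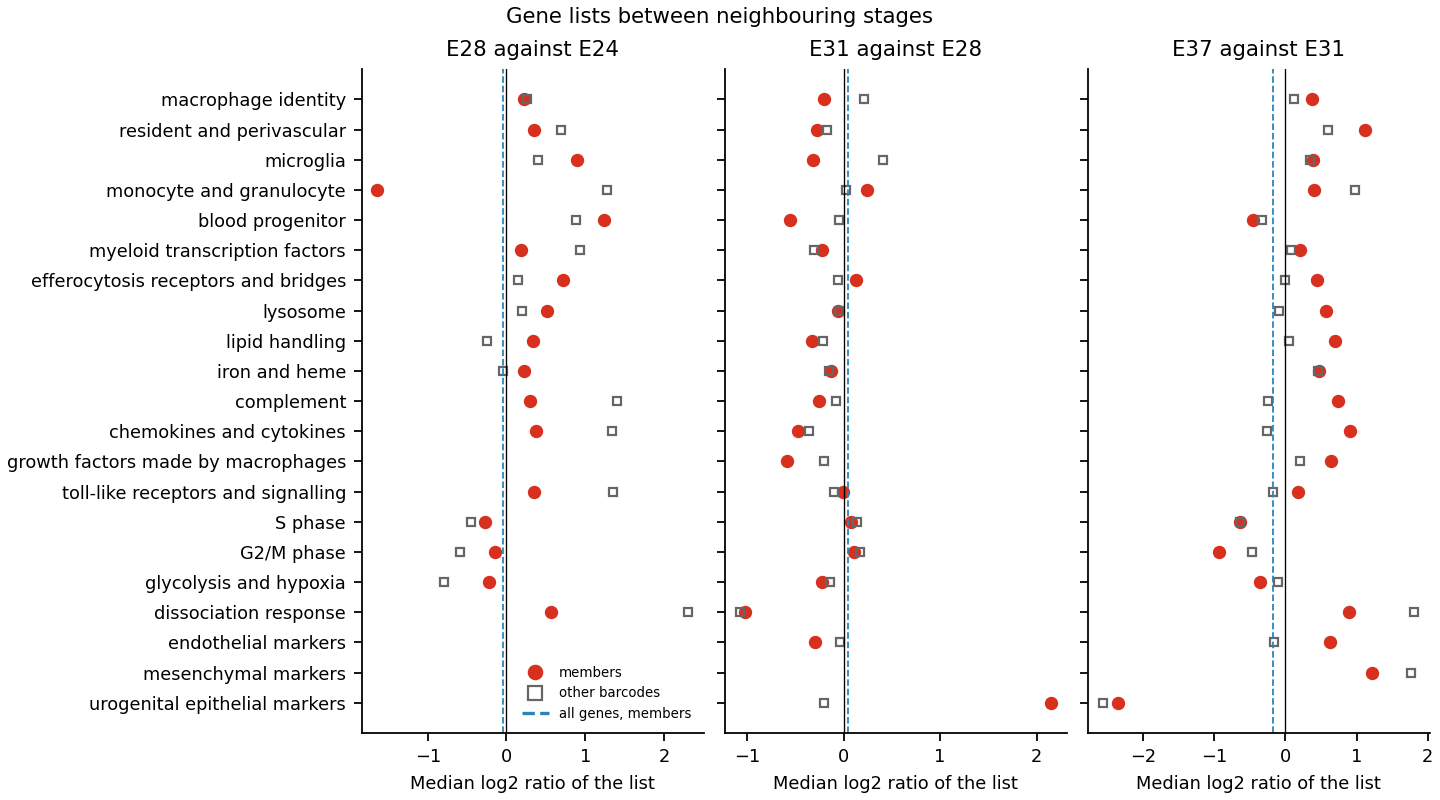
Median log2 ratio of gene lists (horizontal axes, each with its own scale) for 3 stage comparisons, in members (red circles) and other barcodes (open squares), for lists with at least 5 genes tested. The dashed line is the median of all genes in members; at E37 against E31 the resident list (1.12) lies to the right of it and the G2/M list (-0.93) to the left.

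Of 17 G2/M genes, 8 were 2-fold or more lower at E37 than at E31 (CDK1, CCNB1, CCNB2, CCNA2, BIRC5, TPX2, PLK1 and HMGB2) and 0 higher, where 8.88% of all genes tested were lower, with a median log2 ratio of -0.93 against -0.46 in the other barcodes. Of 16 S phase genes, 4 were lower (MCM2, MCM7, CDC6 and UHRF1) and 0 higher, with a median of -0.63 against -0.64. CCNB1, cyclin B1, stood at 154, 83.5, 111 and 35.1 CPM in stage order and CDK1, its kinase partner, at 129, 113, 180 and 83.3 CPM. MKI67 stood at 173, 229, 169 and 162 CPM, within 1.5-fold over the stages, and TOP2A, a topoisomerase of dividing cells, at 379, 338, 334 and 259 CPM. The share of members with a MKI67 UMI was 72.1%, 54.5%, 54.2% and 30.1%, and 27.9%, 18.2%, 25.4% and 17.8% after thinning to 2000 UMIs. For TOP2A the thinned shares were 51.2%, 42.4%, 39.0% and 19.2% in members and 32.4%, 22.4%, 24.2% and 15.5% in the other barcodes. Against the other barcodes of the same stage, 0 of the 17 G2/M genes were 2-fold or more higher in members at any stage and 2 were lower at E37 (CCNB1 and CCNB2), with median log2 ratios of -0.40, -0.03, -0.03 and -0.54 in stage order. Over all genes, 11.9% to 14.2% were higher in members by stage and 22.5% were lower at E37, so nothing is read from the 2 lower genes.

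Lower at E37 by the naming rule were CRABP2, MSMO1, PEG10, FDFT1, SFRP2, MDK, TMSB15A and EXTL2. MSMO1 and FDFT1 are enzymes of cholesterol synthesis. MSMO1 stood at 127, 44.7, 64.7 and 7.31 CPM in stage order, 8.85-fold lower at E37 than at E31, against 1.65-fold in the other barcodes. FDFT1 stood at 144, 91.3, 105 and 23.4 CPM, 4.48-fold lower against 1.37-fold. EXTL2, a glycosyltransferase, stood at 82.8 CPM at E31 and 19.0 CPM at E37, with 103 CPM in the other barcodes at both stages, and lay in 32 of 59 and 13 of 73 members. CRABP2, a retinoic acid carrier, stood at 82.8 and 10.2 CPM in members and at 696 and 188 CPM in the other barcodes. PEG10, SFRP2, MDK and TMSB15A were the same genes that stood higher at E31 than at E28. Of 7 urogenital epithelial markers, 5 were 2-fold or more lower in members at E37 (WT1, KRT18, LHX1, PAX8 and EMX2), and their sum per member had a highest value of 25.6 UMIs per 10000 with 64 of 73 members at 0. Over all genes tested, 8.88% were 2-fold or more lower in this step. The part of the urogenital markers in the lower genes was not tested.

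Marker lists of other cell types were summed last. Mesenchymal markers summed to 218, 50.5, 114 and 230 CPM in members in stage order, against 1437, 859, 783 and 2743 CPM in the other barcodes, and 26 of 43, 28 of 33, 40 of 59 and 42 of 73 members had none. COL1A1, COL3A1 and DCN were 2-fold or more higher in members at E37 than at E31 and TCF21 lower, with a median of 1.21 over 5 mesenchymal markers and of 1.77 in the other barcodes. In this step 4.1% of all genes tested were higher in members and 8.88% lower. Endothelial markers summed to 420, 361, 307 and 466 CPM in members and to 129, 340, 334 and 290 CPM in the other barcodes, with ROBO4 at 0 UMIs in members of every stage. EGFL7, a secreted protein of vessels, gave most of the members' sum, at 315, 231, 199 and 370 CPM against 59.9, 122, 139 and 82.2 CPM. Against the other barcodes at E24, PECAM1, EGFL7 and TIE1 were 2-fold or more higher in members and 0 of the 10 lower. At E28 and E31, 0 were higher, and CDH5, KDR, CLDN5 and EMCN lower. At E37, EGFL7 and TIE1 were higher, and CDH5, KDR, CLDN5, ESAM and EMCN lower. Over all genes, 14.2%, 11.9%, 12.1% and 12.7% were higher in members in stage order and 14.1%, 18.3%, 16.5% and 22.5% lower. ESAM held 48 UMIs in the 13 members with CD34 and SPINK2 and 3 in the 193. The 7 osteoclast markers summed to 367, 223, 107 and 156 CPM in members and to 12.5, 32.7, 33.6 and 43.0 CPM in the other barcodes. MMP9 was 2-fold or more higher in members than in the other barcodes at every stage, ACP5 at E24, E28 and E37, and CTSK at E24. DCSTAMP, OCSTAMP and CALCR had no UMI in members at any stage. The part of these markers in the stage differences was not tested.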

How the data were processed

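Droplet 3′ libraries of 4 embryo stages were made after trypsin and EDTA dissociation, per the labels' protocols, which name both v2 chemistry and v3 kits. Per the labels and the values, the authors deposited unnormalised UMI counts, made with Cell Ranger 2.1.0 per the submitters' processing notes. Build and annotation: not given in the sources used here. Each table has 26223 gene rows, 1 with a blank name and 0 UMIs. Of 9499 rows with LOC identifiers 3867 matched RefSeq gene identifiers (T2T-MFA8v1.1), which gave 6 list genes their symbols. Sex-linked genes of the lists are not among the names.

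Members were barcodes with UMIs of at least 4 of 8 genes. UMIs were summed over members, and over the other barcodes, of each library and scaled to CPM. Ratios have exact conditional binomial, levels Poisson and shares exact binomial 95% intervals. A gene was measured at 20 or more UMIs over both sums. A sum of 0 was set to 3 UMIs as a bound, also in the list medians of members. Where this bound would have turned the direction of a log2 ratio, the log2 ratio was set to 0. Log2 ratios of the other barcodes between stages, and their list medians, used a pseudocount of 0.5 UMIs instead. The members, the 31 gene lists (380 of 417 genes found) and the rules were chosen with earlier results of these data known. Named genes were all rule genes, 15 by their lowest interval bound against the other barcodes, and up to 8 per direction and stage step by the bound nearest 1, among genes with at least 50 UMIs in the higher sum and a log2 ratio 1 or more beyond that of the other barcodes. Rule genes, ribosomal genes, LOC identifiers and globins were left out of the last. List genes were named by their role.

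No test was run, since each stage has 1 library. Doublets were not called; barcodes over 2 times the library median of UMIs were left out in an alternative. The members held 590742, 514669, 773163 and 683877 UMIs at E24, E28, E31 and E37, so that 3 UMIs are 3.88 to 5.83 CPM. Thinning drew 2000 UMIs per barcode with seed 0. Other alternatives changed the number of rule genes, the UMI minimum, the pseudocount, the scaling and the averaging. The alternatives of 7 rule genes, of C1Q members alone and of the top barcode left out were chosen after seeing the data. The interval code was tested on simulated counts. Python 3.11.15, numpy 2.4.6, scipy 1.17.1, pandas 2.3.3 and matplotlib 3.10.9 were used.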

Additional observations from a re-analysis of the deposited data

How the results depend on the processing

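Shares of barcodes kept their order under every rule tried (3, 5 or 7 of 8 genes, C1Q members alone). Counts of genes 2-fold apart depend on depth, on the UMI minimum and on how a sum of 0 is treated. An alternative dropped the minimum and added 0.5 UMIs to each sum in place of the bound of 3 UMIs. Against the other barcodes, 8945, 7999, 7610 and 7073 genes were then higher at E24, E28, E31 and E37. These counts can include genes with 0 UMIs in members, since 0.5 UMIs in the smaller members' sum can exceed a low level in the other barcodes. With thinned barcodes 1010, 873, 1449 and 2057 genes were lower at the same stages. For E28 against E24, 295 genes were higher and 356 lower. These became 50 and 69 with thinned barcodes and 78 and 113 with a minimum of 50 UMIs. With no minimum and 0.5 UMIs added they became 2235 and 2615. For E31 against E28, 349 and 212 became 68 and 34, 75 and 58, and 1653 and 1714. For E37 against E31, 287 and 621 became 90 and 112, 120 and 185, and 1696 and 3209. In that step 400 genes were lower without the barcodes of high UMIs and 404 after centring on the median ratio. Signs turned for APOA1 at E28 against E24, with a log2 ratio of 0.15 without the barcodes of high UMIs, and for CDC42SE1 at E31 against E28, with 0.054 after thinning. Fewer UMIs or barcodes entered these alternatives, and no other cause was tested. Of the named genes, 8 of 16, 6 of 10 and 13 of 16 in the 3 steps stayed past 2-fold under every alternative, the top barcode left out and C1Q members alone included. No paired analysis was possible because each stage has 1 library and the values come from no test. With 33 to 73 members a stage, genes under about 5 CPM rest on 3 UMIs or fewer.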
